A study of Mus musculus with 5 samples.

Results

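Fc receptors bind the constant part of antibodies, and 6 of their genes in mouse dendritic cells are described here: Fcgr1, Fcgr3, Fcgr4, Fcgr2b, Fcer1g and Fcgrt. They were chosen by name, and they are 6 of the 13928 protein-coding genes with a transcription start in the authors' lists of regions called against IgG. A region belonged to a gene when the authors' list assigned it to that gene or when its nearest edge lay within 5 kb of a listed start. Chromatin immunoprecipitation sequencing (ChIP-seq) had mapped the transcription factor STAT3, which cytokine signals switch on, and H3K4me3, the trimethylation of histone H3 that marks active promoters. The 4 groups were STAT3 in SAHA, H3K4me3 in SAHA, STAT3 in diluent and H3K4me3 in diluent, with 1 library each, and a library made with IgG from diluent cells served as the only control for both conditions. SAHA (vorinostat) inhibits histone deacetylases, and the labels give its dose as 500 nm, for 12 hours. All groups were dendritic cells grown from the marrow of 10-week-old C57BL/6 females over 7 days in GM-CSF and IL-4 (10 ng/mL each) and selected for CD11c to 95% purity. No mutant was involved. The labels do not give the number of mice behind a library.

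Receptors for IgG come in activating and inhibitory kinds. Fcgr1 encodes FcγRI, which binds monomeric IgG with high affinity, while Fcgr3 and Fcgr4 encode FcγRIII and FcγRIV, which bind immune complexes. These 3 activating receptors signal through the common γ chain, encoded by Fcer1g, whose tyrosine motif recruits the kinase Syk. Fcgr2b encodes FcγRIIB, the inhibitory IgG receptor, which recruits the phosphatase SHIP1. Fcgrt encodes the heavy chain of FcRn, which pairs with β2-microglobulin and carries IgG out of endosomes, and it belongs to another structural family. In dendritic cells these receptors govern the uptake of antigen bound to antibody and the threshold of activation.

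The genes Fcgr2b, Fcgr4 and Fcgr3 lie next to each other on mouse chromosome 1, with 83.4 kb between the outer starts, and Fcer1g starts 174.9 kb beyond Fcgr3. In mm9, the build of the files, the listed starts were at 172906178 for Fcgr2b (minus strand), 172949056 for Fcgr4 (plus strand), 172989534 for Fcgr3 (minus strand) and 173164480 for Fcer1g (minus strand). Fcgr1 starts at 96097892 on chromosome 3 and Fcgrt at 52359192 on chromosome 7, both on the minus strand. A shorter transcript was also listed for Fcgr1 (start 96090028) and for Fcgr3 (start 172988183), and distances below are from the longer one unless stated.

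Since all 6 starts lay under H3K4me3 in both conditions, the bases just before 4 of them are shown, from RefSeq on GRCm38.p6, a later build than that of the files. They are the 250 bases before the RefSeq start of the 3 activating receptors and, as the contrast, of the inhibitory receptor. Capitals mark matches to TTCNNNGAA, the letters of a STAT site, and to GAGGAA or its reverse complement TTCCTC, the core bound by the myeloid factor PU.1. Both motifs were searched on both strands, and no match of one overlapped the other. The windows were chr3:96293970-96294219 (minus strand) for Fcgr1, chr1:171059404-171059653 (minus strand) for Fcgr3, chr1:171018676-171018925 (plus strand) for Fcgr4 and chr1:170976072-170976321 (minus strand) for Fcgr2b.
Fcgr1: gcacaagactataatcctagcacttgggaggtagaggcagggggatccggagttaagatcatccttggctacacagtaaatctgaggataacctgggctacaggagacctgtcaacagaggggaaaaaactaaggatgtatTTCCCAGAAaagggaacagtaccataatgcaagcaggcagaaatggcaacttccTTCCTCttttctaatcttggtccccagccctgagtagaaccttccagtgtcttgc
Fcgr3: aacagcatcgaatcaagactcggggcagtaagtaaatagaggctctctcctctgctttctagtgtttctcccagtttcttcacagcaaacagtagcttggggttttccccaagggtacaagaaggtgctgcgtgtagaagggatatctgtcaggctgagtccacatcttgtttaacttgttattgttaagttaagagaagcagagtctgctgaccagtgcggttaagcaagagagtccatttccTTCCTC
Fcgr4: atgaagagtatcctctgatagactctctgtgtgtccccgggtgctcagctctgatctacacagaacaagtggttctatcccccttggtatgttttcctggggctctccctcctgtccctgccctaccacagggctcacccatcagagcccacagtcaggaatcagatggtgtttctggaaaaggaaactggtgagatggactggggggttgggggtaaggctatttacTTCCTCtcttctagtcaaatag
Fcgr2b: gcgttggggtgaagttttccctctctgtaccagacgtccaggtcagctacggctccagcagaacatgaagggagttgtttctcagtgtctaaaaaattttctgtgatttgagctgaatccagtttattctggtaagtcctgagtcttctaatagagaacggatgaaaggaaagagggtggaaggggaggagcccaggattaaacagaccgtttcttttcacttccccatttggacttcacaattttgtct

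The TTCNNNGAA letters occurred in the Fcgr1 window alone, as TTCCCAGAA at bases 109 to 101 before the start, and 7.18% of 27025 RefSeq promoters of the same length held them. The PU.1 core occurred once in each activating receptor, at bases 55 to 50 before the start in Fcgr1, 6 to 1 in Fcgr3 and 22 to 17 in Fcgr4. Of all promoters, 23.1% held the core. Neither motif was in the windows of Fcgr2b, Fcer1g or Fcgrt. The 6 windows held between 45.2% G and C (Fcgr2b) and 54.8% (Fcer1g), around a median of 52.0% over all promoters. A match is a description of letters and no evidence of binding.

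The rule found 3 STAT3 regions in SAHA, of 8551 in that list, and 5 in diluent, of 3507. Counting genes with a region edge within 5 kb of a start gave 1 of 6 in SAHA (Fcgr3) and 3 of 6 in diluent (Fcgr1, Fcgr3 and Fcgr2b). Over all protein-coding genes the share was 18.4% in SAHA and 6.37% in diluent. The order of the counts changed with the limits: within 50 kb of a start it was 5 of 6 in SAHA and 4 of 6 in diluent. Among regions with a score of at least 50 it was 1 in SAHA and 0 in diluent. No share over all genes was computed for these 2 limits, so these counts have no background. Within 50 kb, SAHA took in Fcer1g and Fcgrt through regions assigned to other genes, and neighbouring starts can share a region. A count of 1 or 3 among 6 genes, from 1 library per condition, has no replicate check. The regions nearest the limit on either side lay 3885 bp from a start (counted) and 6257 bp from one (not counted).

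At Fcgr3, both libraries had a STAT3 region, at different places. In SAHA it spanned 4183 bp upstream of the start (chr1:172993419-172997601), with its near edge 3885 bp away, and its score of 112.18 ranked 23rd of 8551. Its width ranked 3rd in that list, whose median region was 612 bp wide with a score of 35.38. In diluent the region was 789 bp wide (chr1:172989097-172989885), lay over the start itself, and had a score of 31.52, which ranked 2769th of 3507. The diluent list had a median width of 704 bp and a median score of 35.02. The gap between the SAHA and diluent regions was 3533 bp, so they shared no base. The table called from the SAHA library alone also held the upstream region, with 101 tags over 2496 bp (chr1:172993535-172996030) and a fold enrichment of 3.4 over local background, the authors' value. None of the other 7 STAT3 regions at these genes was in a single-library table, so no tag count, and no tag ratio between conditions, exists for them.

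At Fcgr1, the upstream STAT3 region was the only one of the 6 genes found in both libraries. It lay at chr3:96104691-96105724 in SAHA (score 36.29, rank 3894) and at chr3:96104149-96105285 in diluent (score 52.67, rank 273), and the regions shared 595 bp. Its midpoint was 7.3 kb upstream of the start in SAHA and 6.8 kb in diluent, beyond the 5 kb limit, within an H3K4me3 region of each condition. Shared STAT3 regions were thus 1 of 3 in SAHA and 1 of 5 in diluent, against 2.76% and 6.67% of all regions of those lists. A second region, in the diluent list, lay inside the gene (chr3:96088273-96088917), 1111 bp past the shorter transcript's start and 8975 bp from the longer one's. Its score of 31.16 ranked 2929th, and no H3K4me3 region of diluent covered it.

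Fcgr4 had 1 STAT3 region in each library, far from its start and on opposite sides. The SAHA region (chr1:172968038-172968708, score 42.52, rank 1999) lay 19.3 kb downstream, between Fcgr4 and Fcgr3. The diluent region (chr1:172935779-172936440, score 31.34, rank 2846) lay 12.9 kb upstream, between Fcgr2b and Fcgr4. Fcgr2b, the inhibitory receptor, had 1 STAT3 region in diluent (chr1:172902671-172903952, score 49.37, rank 366), with its edge 2226 bp downstream of the start, and none in SAHA, where the nearest lay 61.9 kb away.

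Neither list gave a STAT3 region to Fcer1g or Fcgrt. For Fcer1g the nearest lay 28.2 kb away in SAHA and 119 kb away in diluent, and for Fcgrt 41.5 kb and 271 kb away, all assigned to other genes. All 3 STAT3 regions in SAHA overlapped H3K4me3 regions of SAHA, and 3 of 5 in diluent overlapped those of diluent. Over the whole lists these shares were 27.2% in SAHA and 24.9% in diluent. Those cover regions wherever they lay, while these 6 genes all carried H3K4me3, so the sets are not alike. No region of the IgG library came within 232 kb of any STAT3 or H3K4me3 region of the 6 genes. Scores come from the authors' lists and rank regions within 1 list only.

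**Figure D1:**
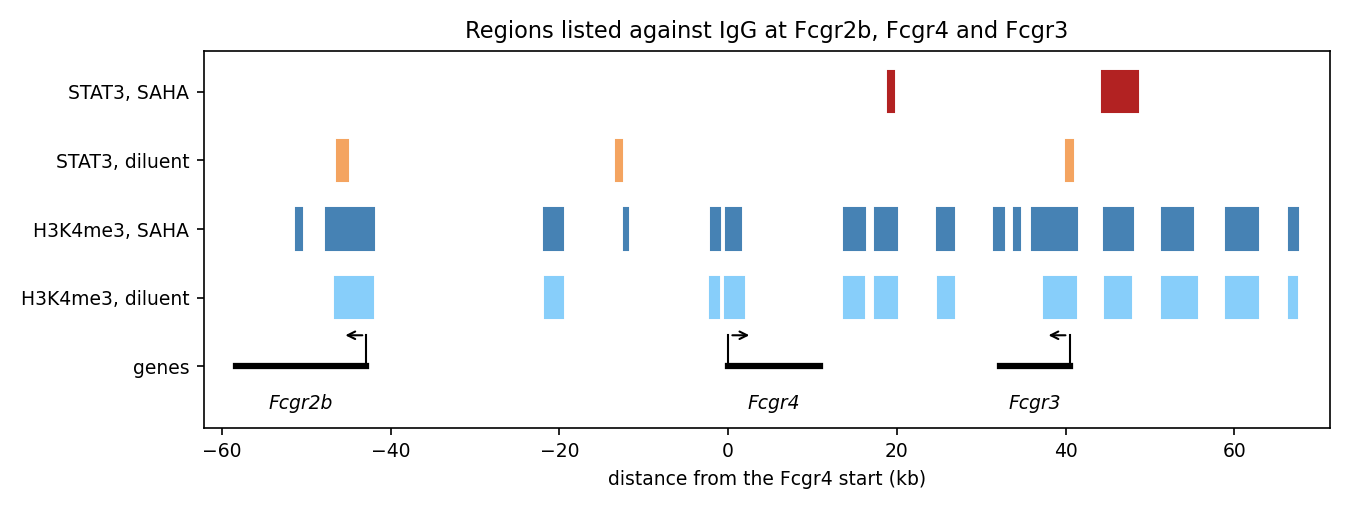
Regions listed against IgG around Fcgr2b, Fcgr4 and Fcgr3, by distance from the Fcgr4 start in kb, with 1 row per library (SAHA above diluent for each mark) and the genes with their direction of transcription at the bottom. The SAHA STAT3 region upstream of Fcgr3 is 4183 bp wide and shares no base with the 789 bp region over the Fcgr3 start in diluent, while the H3K4me3 rows largely match.

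**Figure D2:**
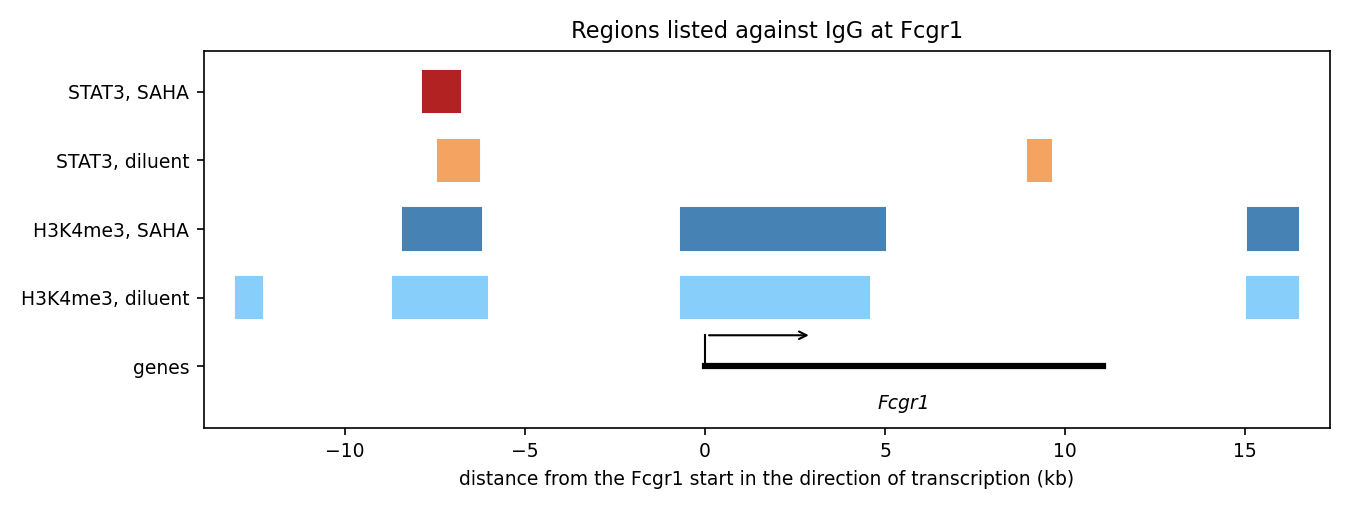
Regions listed against IgG around Fcgr1, by distance from its start in kb in the direction of transcription, with SAHA above diluent for each mark. The STAT3 regions 7.3 kb upstream in SAHA and 6.8 kb upstream in diluent overlap by 595 bp inside H3K4me3 regions of both conditions.

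H3K4me3 covered the start of all 6 genes in both conditions. Within 5 kb of a start, 85.6% of protein-coding genes had an H3K4me3 region in SAHA, 84.5% in diluent and 83.5% in both, so presence at 6 of 6 is near the background. The rule found 21 H3K4me3 regions in SAHA and 18 in diluent, and 17 of 21 and 17 of 18 overlapped a region of the other condition, against 82.2% and 94.6% of all regions. Most belonged to Fcgr3 (8 in SAHA, 6 in diluent) and Fcgr4 (6 in SAHA, 5 in diluent), that is, to the stretch between and beyond these neighbours. Fcgr1 had 3 in SAHA and 4 in diluent, Fcgr2b 2 and 1, and Fcer1g and Fcgrt 1 in each. In total the regions covered 54.475 kb in SAHA and 49.068 kb in diluent.

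Tags were compared at 16 of these places, where 1 region of each condition overlapped and both could be found, end for end, in the tables called per library. Each count was scaled to the filtered tags of its library, and the ratio of SAHA over diluent is given as log2 with a 95% interval that covers counting error only. None of the 16 differed by 2-fold or more in either direction, against 5.98% of all 17704 such pairs. The interval lay wholly above 0 at 3 places (background 24.2%) and wholly below 0 at 6 (background 24.3%). The median log2 ratio was -0.02 over the 16 and -0.01 over all pairs. With 1 library per condition, none of these ratios has a replicate error.

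Of the activating receptors, Fcgr1 and Fcgr4 had fewer H3K4me3 tags at the promoter in SAHA. The Fcgr1 promoter region held 1288 tags in SAHA and 1607 in diluent, a log2 ratio of -0.25 (interval -0.36 to -0.15), over 5657 bp in SAHA and 5215 bp in diluent. The Fcgr4 promoter region held 176 tags in SAHA and 269 in diluent (log2 ratio -0.55, interval -0.83 to -0.27), over 1798 bp in SAHA and 2222 bp in diluent. By tag sums it was the lowest ratio of the 6 promoters, at percentile 4.25 of all pairs. Per kb of called region it was -0.24, with an interval (-0.52 to 0.04) that included 0, against -0.37 at Fcgr1 (interval -0.48 to -0.26). The sum over all single-library regions within 5 kb of the Fcgr4 start gave -0.08 in its place. That sum takes in a region 1.5 kb upstream with 67 tags in SAHA, which in diluent was in the list against IgG but not in the single-library table.

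The Fcgr3 promoter region held 888 tags in SAHA and 1011 in diluent, a log2 ratio of -0.12 whose interval (-0.25 to 0.01) included 0. The region was called wider in SAHA, at 5335 bp, against 3800 bp in diluent. Per kb of called region, the ratio was therefore lower, at -0.61 (interval -0.74 to -0.48). The extra width lay on the gene side. Of 2 further regions in the SAHA list only, chr1:172982908-172983691 (score 57.7) lay in the gene and chr1:172980560-172981792 (score 109.18) ran across its far end. They ranked 24796th and 21184th of 25723 by score, and neither was in the table called from the SAHA library alone.

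Fcgr2b was the only one of the 6 promoters with an interval above 0, and its direction depended on how width was treated. Its region held 1361 tags in SAHA and 1213 in diluent, a log2 ratio of 0.23 (interval 0.12 to 0.34). It spanned 5758 bp in SAHA and 4487 bp in diluent, and per kb the ratio was -0.13 (interval -0.24 to -0.02). The sources used here do not say how reads that match both Fcgr2b and Fcgr3 were placed. These genes share near-identical stretches, and the reads were 38 bases long, so counts there are uncertain to that extent.

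The signalling chain and the transport receptor marked the ends of the range. Fcer1g held 2581 tags in SAHA and 2616 in diluent, at percentiles 98.1 and 97.9 of all pairs, and its log2 ratio was 0.05 (interval -0.03 to 0.12). Fcgrt held 96 tags in SAHA and 75 in diluent, a log2 ratio of 0.42 with a wide interval (-0.03 to 0.88) that included 0. Scaled to total reads, both intervals lay above 0, at 0.0046 to 0.16 for Fcer1g and 0.01 to 0.91 for Fcgrt. Its region was 1034 bp wide in SAHA and 1023 bp in diluent. Over the 6 promoters, 1 interval lay above 0, 2 below and 3 included 0. Of the 10569 genes with such a promoter pair, 20.4% lay above, 31.5% below and 2.7% differed by 2-fold or more.

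Called regions were wider in SAHA at 11 of the 16 places and at 5 of the 6 promoters, against 67.9% of all pairs. Per kb, 12 of the 16 ratios were below 0, against 59.3% of all pairs, with a median of -0.08 over the 16 and -0.07 over all pairs. The share of wider regions over the 16 was near that of all pairs. The share below 0 per kb was higher than that of all pairs, a difference that was not tested, and the medians were alike. No share of wider regions was computed over promoter pairs alone, so the 5 of 6 has no like background.

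Per length, the promoter levels fell in a similar order in both conditions. The unit is tags per 1e6 filtered tags per kb of called region. In SAHA the levels were 22.1 at Fcer1g, 11.0 at Fcgr2b, 10.6 at Fcgr1, 7.77 at Fcgr3, 4.57 at Fcgr4 and 4.33 at Fcgrt. In diluent, the same levels were 22.7 at Fcer1g, 13.7 at Fcgr1, 12.1 at Fcgr2b, 11.9 at Fcgr3, 5.40 at Fcgr4 and 3.27 at Fcgrt. Exact Poisson 95% intervals, which cover counting error only, overlapped between Fcgr2b and Fcgr1 and between Fcgr4 and Fcgrt in SAHA. In diluent they overlapped between Fcgr2b and Fcgr3. The other neighbours in either order had separate intervals, with the spread between libraries unknown.

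**Figure D3:**
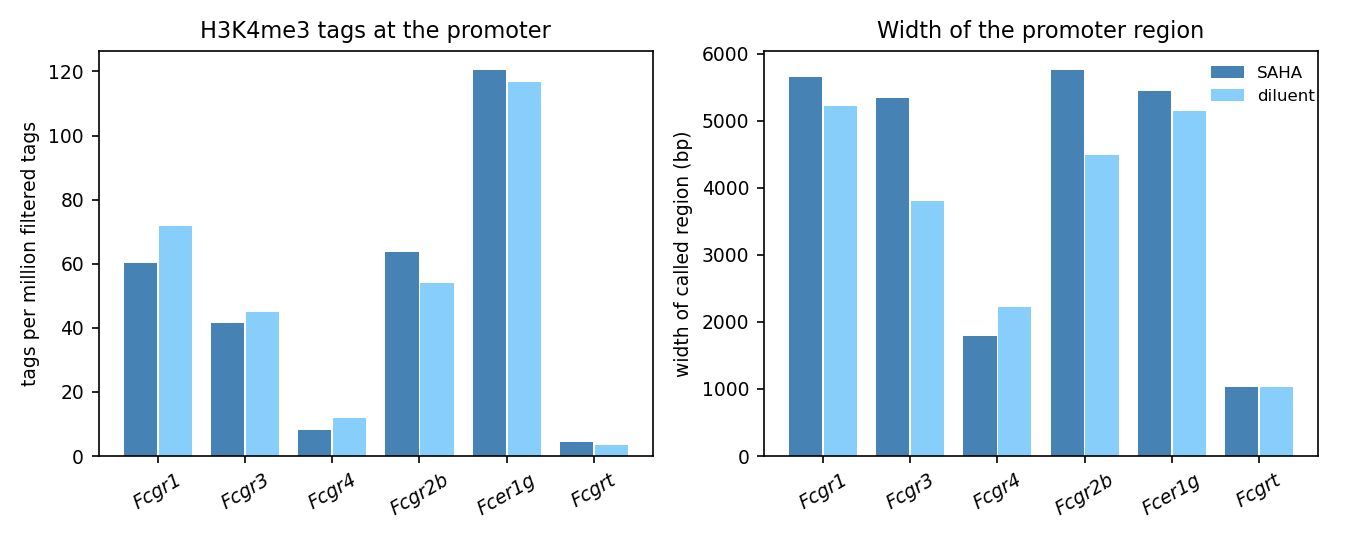
H3K4me3 tags per 1e6 filtered tags (left) and width of the called region in bp (right) at the promoter of each gene, SAHA bar left of the diluent bar, 1 library each and hence no error bars. Fcer1g stands highest in tags with 2581 in SAHA and 2616 in diluent before scaling, and the width at Fcgr3 is 5335 bp in SAHA and 3800 bp in diluent.

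Away from the promoters, the largest differences in tag sums lay between Fcgr4 and Fcgr3. The region 18.7 kb downstream of the Fcgr4 start held 753 tags in SAHA and 1158 in diluent, a log2 ratio of -0.56 (interval -0.69 to -0.42) and of -0.54 per kb. By tag sums it was the lowest of the 16, and it is where the SAHA STAT3 region of Fcgr4 lay; per kb the Fcgr3 promoter was lower. The region 14.7 kb downstream of the Fcgr3 start held 592 tags in SAHA and 824 in diluent (log2 ratio -0.41, interval -0.57 to -0.26).

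Other places near these genes were close to even. The region 14.9 kb downstream of Fcgr4 held 813 tags in SAHA and 851 in diluent, a log2 ratio of -0.0006. The region under the wide SAHA STAT3 region, 5.8 kb upstream of Fcgr3, held 618 tags in SAHA and 592 in diluent (log2 ratio 0.13, interval -0.04 to 0.29). Higher in SAHA were the region 20.7 kb upstream of Fcgr4, with 290 tags in SAHA and 244 in diluent (log2 ratio 0.31, interval 0.06 to 0.57), and the region 20.4 kb upstream of Fcgr3, with 594 and 549 tags (log2 ratio 0.18, interval 0.01 to 0.35). Per kb, the interval of the Fcgr4 region included 0 (-0.01 to 0.50).

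At Fcgr1, both paired regions outside the promoter had intervals that ended next to 0. The region 7.3 kb upstream, which covers the shared STAT3 region, held 138 tags in SAHA and 184 in diluent (log2 ratio -0.35, interval -0.68 to -0.02). The region 15.8 kb downstream held 183 in SAHA and 234 in diluent (log2 ratio -0.29, interval -0.58 to -0.0042). Both intervals included 0 when scaled to total reads (-0.64 to 0.01 upstream, -0.54 to 0.03 downstream) and per kb, where the upstream ratio was -0.08. The 2 remaining places, 12.9 kb and 26.5 kb upstream of Fcgr3, had log2 ratios of -0.04 and 0.15 with intervals that included 0.

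A few H3K4me3 regions were in only 1 list. In the SAHA list these were the 2 of Fcgr3 named above, 1 in Fcgr2b (chr1:172897875-172898516, score 56.36) and 1 upstream of Fcgr4 (chr1:172936651-172937224, 32 tags). Of these, the SAHA single-library table held only the Fcgr4 region. The diluent single-library table held the Fcgr4 region too, with 20 tags. In the diluent list it was 1 upstream of Fcgr1 (chr3:96110195-96110910, 33 tags), which the SAHA single-library table held with 25 tags. These 2 were thus called in both libraries, and their absence from a list against IgG is not absence of signal.

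**Figure D4:**
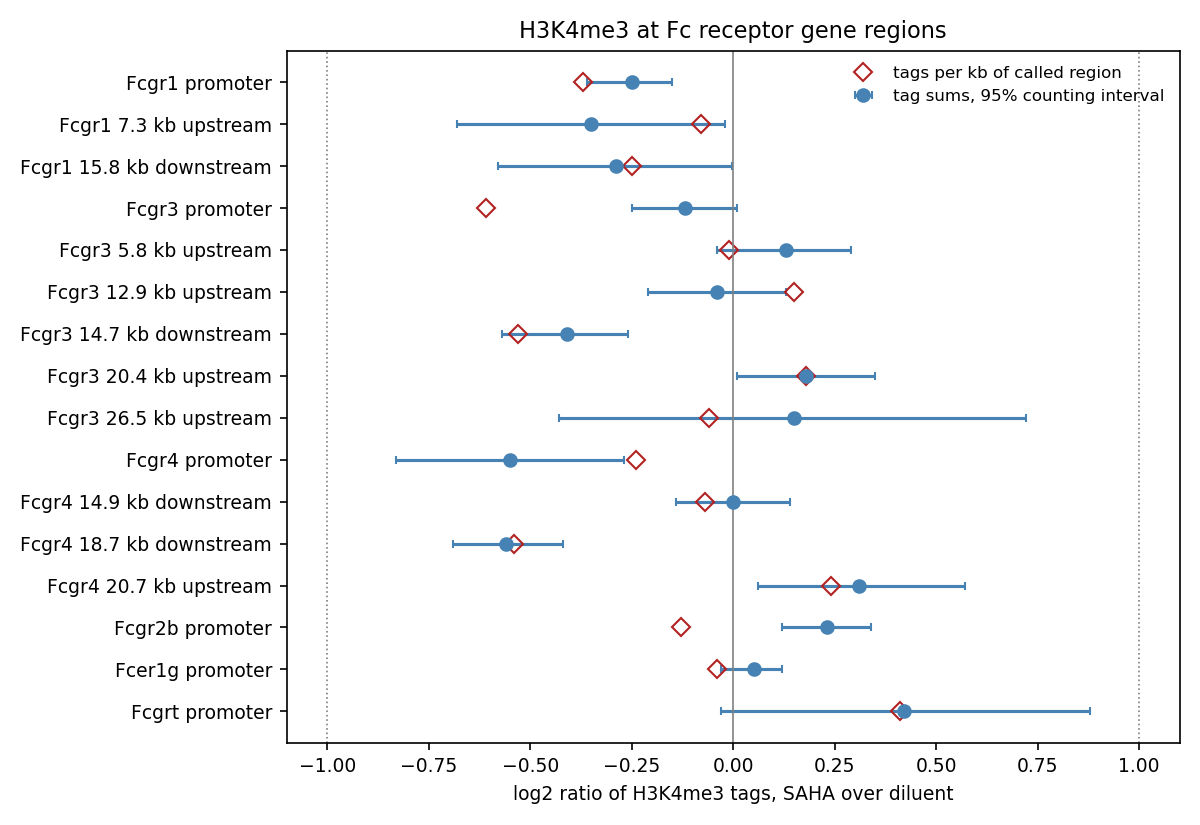
Log2 ratio of H3K4me3 tags, SAHA over diluent, at the 16 regions of Fc receptor genes; circles are tag sums with 95% counting intervals, open diamonds are tags per kb of called region, and dotted lines mark 2-fold. All 16 lie within 2-fold, from -0.56 at 18.7 kb downstream of Fcgr4 to 0.42 at Fcgrt, and among the places whose interval excludes 0 only the Fcgr2b promoter changes side between circle and diamond.

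**Figure D5:**
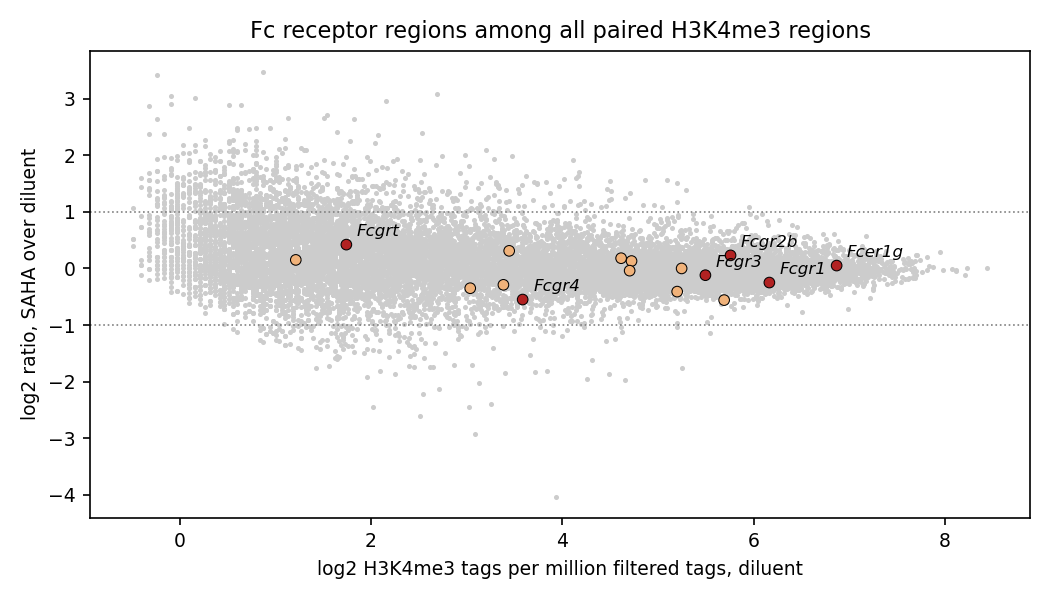
Log2 ratio of H3K4me3 tags, SAHA over diluent, against log2 tags per 1e6 filtered tags in diluent, for all 17704 pairs of regions (grey), with the 6 Fc receptor promoters (red, named) and the 10 other regions of these genes (orange). The named points lie inside the grey cloud, whose spread widens at low tag counts.

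Genes around the receptors were counted from 7 lists. These were other Fc receptors, signalling adaptors beside Fcer1g, activating signalling, inhibitory signalling, phagocytosis and oxidase, the FcRn partner, and transcription factors of Fc receptor genes. Of 72 genes listed, 66 had a start in the lists. A STAT3 region lay within 5 kb of 16 of them in SAHA and 4 in diluent, with Hcst, an adaptor gene, the only one in both (scores 48.29 in SAHA and 38.31 in diluent). The shares over all genes are those given above, 18.4% in SAHA and 6.37% in diluent, and 1.82% in both. None of the 7 other Fc receptor genes with a listed start had a STAT3 region.

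Activating signalling held 8 of the 16 genes with STAT3 in SAHA, out of 23 listed. They were Syk, the kinase that docks on the γ chain (score 31.63), the Src-family kinase Fyn (56.65), the exchange factor Vav1 (43.23), the PI3-kinase subunits Pik3cd (35.3), Pik3r1 (32.48) and Pik3r5 (35.37), the protein kinase Prkcd (36.92) and the adaptor Gab2 (30.51). In diluent the list had Sos1, a Ras exchange factor (81.02). Over all protein-coding genes the share was 18.4% in SAHA and 6.37% in diluent, and the lowest score in either STAT3 list was 30. Inhibitory signalling had Dok1, an adaptor that restrains Ras (82.87), and the phosphatase Ptpn22 (42.88) in SAHA and none in diluent, out of 10.

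Among 17 genes of phagocytosis and oxidase, SAHA had Cyba, an oxidase subunit (44.94), Cdc42, a small GTPase (38.41), and Asap1, which acts on Arf GTPases (95.48), while diluent had Elmo1, a partner of Rac activators (34.92). The remaining genes were Cd79b, a B cell receptor chain, in SAHA (38.28), Spi1, which encodes PU.1, in SAHA (40.7), and B2m, the FcRn partner, in diluent (43.8). Scores within these lists are again the authors' own.

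H3K4me3 lay within 5 kb of 61 of the 66 genes in SAHA and 60 in diluent, against 85.6% and 84.5% of all genes. Of 47 promoter pairs, none differed by 2-fold or more, 13 intervals lay above 0 and 10 below. Over all promoter pairs 2.7% were past 2-fold, 20.4% above and 31.5% below. The median log2 ratio of the 47 was 0.03 (-0.09 per kb), against -0.05 (-0.13 per kb) over all. By tag sums the largest ratio was 0.52 at Ncf4, an oxidase subunit (interval 0.42 to 0.62, and 0.31 per kb). It held 1899 tags in SAHA and 1387 in diluent. Rac2, a GTPase of the oxidase, followed at 0.51 (interval 0.40 to 0.61, and 0.29 per kb), with 1684 and 1241. The lowest was at Csk, a kinase that restrains Src kinases, with 110 tags in SAHA and 203 in diluent (-0.82, interval -1.17 to -0.48). Csk's region was 1590 bp wide in SAHA and 2739 bp in diluent, and per kb its ratio was -0.03.

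Next were Lat2, an adaptor, with 454 tags in SAHA and 653 in diluent (-0.46), and Was, an actin regulator, with 526 and 751 (-0.45). Among inhibitory signalling genes the highest was Inpp5d, which encodes SHIP1, the phosphatase recruited by FcγRIIB, with 2823 tags in SAHA and 2372 in diluent (0.32, interval 0.24 to 0.40). Fyn (0.33), Pik3cd (0.34) and Prkcd (0.26) were highest in activating signalling, while Sos1 (-0.24) and Vav1 (-0.15) stood beside Lat2 as its lowest. Other Fc receptor genes had 3 pairs, from -0.27 at Fcrla to 0.36 at Fcrlb, with Trim21, a cytosolic antibody receptor, at 0.01. B2m held 6452 tags in SAHA and 6708 in diluent (0.01). Per kb the ratio was 0.12 at Inpp5d, 0.08 at Fyn, 0.29 at Pik3cd and 0.10 at Prkcd. It was -0.44 at Lat2, -0.45 at Was, -0.26 at Sos1 and -0.22 at Vav1. At Fcrla it was -0.40, at Fcrlb 0.27, at Trim21 -0.33 and at B2m -0.13.

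By promoter tags and widths in the 2 H3K4me3 libraries, the nearest of 10569 genes was Cdkl4 for Fcgr1 (Euclidean distance 0.0976 in log2 units), Pnp2 for Fcgr3 (0.208), Lhx2 for Fcgr4 (0.156), Plxna1 for Fcgr2b (0.0858), Alkbh5 for Fcer1g (0.0663) and Map7d3 for Fcgrt (0.136). With 2 libraries this says only that the numbers were alike. For Fcgr2b, for example, Plxna1 had 1377 tags in SAHA and 1187 in diluent.

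The libraries held 17810183 filtered tags for STAT3 in SAHA and 25013431 in diluent, and 21428355 and 22420200 for H3K4me3. The SAHA STAT3 library was thus the shallowest, and its list against IgG was longer (8551 regions, against 3507 in diluent). Called alone, with no control, the same libraries gave 784 STAT3 regions in SAHA and 844 in diluent. Both STAT3 libraries and IgG were read on 1 flow cell and both H3K4me3 libraries on another. As a check of cell type, marker genes were counted only where they had a listed start. A start was listed only if some region was assigned to the gene, so the counts lean toward presence. Names without one were 1 of 10 dendritic, 1 of 7 macrophage and monocyte, 2 of 7 granulocyte and mast cell, 3 of 4 T, 2 of 4 B and 1 of 3 NK. All 9 dendritic marker genes with a listed start had H3K4me3 in both conditions. The 7 with a promoter pair summed to 16551 tags in SAHA and 15048 in diluent. All 6 macrophage and monocyte genes with a listed start did too (9369 and 9282 summed tags). So did 4 of the 5 granulocyte and mast cell genes with a listed start (1047 and 863). Of the genes with a listed start, Cd4 of T cells, Pax5 of B cells and Klrb1c and Eomes of NK cells had none. Klf1 of erythroid cells (561 tags in SAHA and 517 in diluent) and Neurod1 of non-haematopoietic cells (26 and 73) had promoter pairs, and Foxa2 had no H3K4me3. The dendritic log2 ratios ran from -0.56 at Flt3 (208 tags in SAHA and 320 in diluent) to 0.60 at H2-Aa (3727 and 2571). Between them were Itgax at -0.38, Ccr7 at -0.09, Cd74 at 0.10, Batf3 at 0.32 and H2-Ab1 at 0.36. Their median was 0.10 by tag sums and -0.13 per kb of called region. The macrophage and monocyte log2 ratios ran from -0.65 at Mertk (896 tags in SAHA and 1468 in diluent) to 3.07 at Ccr2 (1167 and 145), with Cd68 at -0.14, Adgre1 at -0.07, Csf1r at 0.05 and Cd14 at 0.17. Per kb they were -0.37 at Mertk, 1.64 at Ccr2, -0.38 at Cd68, -0.13 at Adgre1, -0.37 at Csf1r and -0.40 at Cd14. Their median was -0.01 by tag sums and -0.37 per kb. The log2 ratios of granulocytes and mast cells were 2.11 at Elane (136 and 33 tags), 0.65 at Cebpe, 0.26 at S100a8 and 0.08 at Kit. Per kb these were 0.82, 0.38, 0.10 and -0.37. The part of other myeloid cells in the Fc receptor values was not tested, and a different share of cells and a different level per cell cannot be told apart in bulk chromatin.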

How the data were processed

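ChIP-seq libraries of STAT3 and H3K4me3 from SAHA and diluent dendritic cells, and of IgG from diluent cells, were used, 1 per group. The submitters' processing notes name BWA and the mm9 build (no aligner version is stated). MACS 1.4.0rc2, per the file headers, called each library alone, with no control, at a p-value limit of 1e-05 and kept up to 2 duplicate tags at a position. For each region, the deposited single-library tables hold tag counts, a fold enrichment (a ratio over local background) and a score. The authors' deposited lists against IgG carry no header and give a score and 1 gene per region; the settings behind them are not given in the sources used here. Their lowest score was 30 for STAT3 and 50 for H3K4me3. In the STAT3 SAHA list, 1 row repeated a region number out of sequence and was left out. Single-library total reads, from the deposited FastQC tables, numbered between 19504014 and 27920130.

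List starts were moved to 1-based positions. Gene symbols, 87.1% of 17024 matched to RefSeq names, set the genes counted. Regions of 2 conditions were paired by overlap of at least 1 bp, and a promoter pair had its midpoint within 5 kb of a listed start. List ends equalled single-library ends in 86.0% (SAHA) and 91.0% (diluent) of H3K4me3 regions but 1.27% and 1.94% of STAT3 regions, so tag ratios were made for H3K4me3 only. Ratios of tag counts have exact conditional binomial 95% intervals (Clopper-Pearson), which take in counting error alone. No p-value was computed between conditions. On simulated counts for the 17704 H3K4me3 pairs, 198 of 200 regions raised 2-fold were recovered and 95.3% of intervals covered the true ratio. With 1 library per group, this is no check on the spread between libraries. Promoter sequences came from RefSeq on GRCm38.p6, with the first of 2 rows taken for Fcgr3. Python 3.11.15, numpy 2.4.6, scipy 1.17.1, pandas 2.3.3 and matplotlib 3.10.9 were used.

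The genes and lists were chosen with earlier results of these data known. Genes named from the lists were every gene with a STAT3 region within 5 kb and, per list, up to 3 with the largest and 3 with the smallest H3K4me3 ratio, of which the text gives a part; the genes most alike came from the nearest promoter pair. One marker gene is not reported here.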

Additional observations from a re-analysis of the deposited data

How the results depend on the processing

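No paired analysis was possible because each group had 1 library, and for the same reason no replicate could be left out. The number of Fc receptor genes with a STAT3 region near a start depended on the distance and score limits. In SAHA it was 1 within 5 kb, 0 within 1 kb, 5 within 50 kb and 0 when the region's midpoint had to lie within 5 kb, a rule added after seeing the data. Among regions with a score of at least 50 it was 1 in SAHA. In diluent it was 3 within 5 kb, 1 within 1 kb, 4 within 50 kb, 3 by the midpoint and 0 at a score of at least 50, so SAHA had more genes than diluent within 50 kb and at that score. It was 2 in diluent with only the longest listed transcript, also added after seeing the data. The share over all genes was computed for the 5 kb limit only, so the other counts have no background. Regions with an interval above 0 for the H3K4me3 ratio numbered 3, against 6 when scaled to total reads and 1 per kb of called region. Those with an interval below 0 numbered 6, against 4 when scaled to total reads, 5 relative to the median of all pairs and 5 per kb. The Fcgr2b promoter ratio changed sign, with 0.23 for tag sums and -0.13 per kb (interval -0.24 to -0.02). The count of 0 regions past 2-fold, and H3K4me3 at 6 of 6 starts, held under each alternative run for them. Few tags widen the intervals at Fcgrt and at the region 26.5 kb upstream of Fcgr3, and no tag count was given for 7 of the 8 STAT3 regions.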
